A study of Mus musculus with 21 samples.

Results

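Axon guidance ligands and receptors were followed in fibroblasts sorted from fibrotic and untreated mouse lungs. The members were all gene symbols of the count files that belong to the semaphorins (classes 3 to 7), plexins, neuropilins, Slits, Robos, netrins, Unc5 receptors, Eph receptors or ephrins, and there were 60 of them among 23204 symbols: 20 semaphorins, 10 plexins and neuropilins, 5 Slits and Robos, 6 netrins and Unc5 receptors, 11 Eph receptors and 8 ephrins. The 7 groups, with 3 libraries each, were SiO2 day 7, 14 and 63, BLM day 7, 14 and 63, and untreated. SiO2 mice had received 400 mg/kg of crystalline silica once by oropharyngeal aspiration, a model the series calls progressive, and BLM mice 2 mg/kg of bleomycin sulfate by the same route, a model it calls reversible. All mice were female C57BL/6 carrying Col1a2-GFP, a transgene that marks cells using a collagen type I gene. Live GFP-positive cells negative for CD45, CD31, EpCAM, CD146 and Ter119 were sorted, so fibroblasts with a silent transgene, and cells that gained CD146, were outside the sort. Whether the 3 libraries of a group stem from different mice is not stated, so p-values rest on the spread among libraries, which may be technical.

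Guidance cues were first described in growing axons. Secreted class 3 semaphorins bind neuropilins, which signal through plexins, whereas most membrane-bound semaphorins bind plexins directly. Slits are secreted ligands of Robo receptors, and netrins are laminin-like secreted proteins that bind Unc5 receptors and Dcc. Ephrins are held in the membrane and bind Eph receptor tyrosine kinases on neighbouring cells, with signals running into both cells. In lung these families take part in branching, vessel growth and cell migration.

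Transcript 3′ ends were sequenced and counted per gene symbol. Total counts per library ran from 2080636 to 4477283 with a median of 3774431, and the members took 0.123% to 0.150% of them. Levels below are CPM, the usual depth-scaled counts, with library sizes adjusted by trimmed means (TMM). A change is a log2 fold change ± SE from edgeR's quasi-likelihood test over all 21 libraries, called at a Benjamini-Hochberg adjusted p under 0.05 over the 11669 genes tested. Of the 60 members 44 passed the filter on low counts and held 99.54% of the members' counts. Some members, among them Sema7a, Epha7, Plxnb1, Efna4 and Unc5b, passed this filter through treated libraries alone. Their rises against untreated are thus in part selected by the filter. Markers of fibroblasts summed to 18644 to 20758 CPM in untreated libraries and to no less than 17379 CPM in any library. Dcn, Col1a1, Col1a2 and Col3a1 made up most of that sum. At BLM day 14 Col1a1 averaged 3562 CPM and Dcn 7302 CPM, against 689 and 14082 CPM in untreated libraries. Of the 8 fibroblast markers 4 were called higher and 4 lower at BLM day 14 (100%), beside 39.3% of all genes. At SiO2 day 7 it was 3 and 4 (87.5%), beside 44.1%. The endothelial markers Cdh5, Cldn5 and Vwf were at 0 in the untreated, BLM day 14 and SiO2 day 7 libraries. Tek and Ramp2 of the endothelial list averaged 20.3 and 15.9 CPM in untreated libraries. Mesothelial markers summed to 126 to 515 CPM in the treated libraries, against 515 to 640 CPM in untreated ones. Upk1b, most of that sum, averaged 105 to 351 CPM in the treated groups, against 467 CPM in untreated libraries. Msln of the same list averaged 11.8, 39.0 and 14.2 CPM at SiO2 day 7, 14 and 63. At BLM day 7, 14 and 63 Msln averaged 35.1, 24.5 and 7.84 CPM, against 21.1 CPM in untreated libraries. Proliferation genes summed to 7.12 to 307 CPM in the treated libraries, against 8.81 to 17.1 CPM in untreated ones. Whether fewer cells of a type or less RNA per cell set a level cannot be told apart in these bulk samples.

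Of the 44 tested members 35 were called in at least 1 of the 12 comparisons (79.5%), against 64.8% of all genes tested. All 6 comparisons of a treated group with untreated share the same 3 untreated libraries. Where overlap of libraries is described below, the members had already been called. Such overlap adds no support to a call, and its share over all genes was not counted. At SiO2 day 7, 11 members rose and 10 fell, where 23.4% of all genes rose and 20.6% fell. SiO2 day 14 had 8 higher and 4 lower members, beside 13.6% and 10.5% of all genes. With upper quartile scaling these were 6 higher and 5 lower members, and 44.8% of the called genes were higher, in place of 56.4%. For SiO2 day 63 the counts were 8 higher and 11 lower, beside 15.3% and 12.5%. At BLM day 7, 11 members rose and 9 fell, beside 16.7% and 14.9% of all genes. BLM day 14 had 12 higher and 10 lower members, beside 20.7% and 18.5%. By BLM day 63 the counts were 6 higher and 7 lower, beside 6.02% and 5.48%. The median log2 fold change of the tested members lay between -0.03 (SiO2 day 7) and 0.14 (SiO2 day 63), and that of all genes between 0.01 (BLM day 63) and 0.04 (SiO2 day 7).

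Several of these counts moved when 1 library was left out, as did those of all genes. The BLM day 7 count of 20 was 12 without untreated replicate 1, where all genes gave 3005 calls in place of 3685. The BLM day 63 count of 13 was 7 without untreated replicate 1, 5 without untreated replicate 2, 8 without BLM day 63 replicate 2 and 4 without BLM day 63 replicate 3. All genes then gave 795, 949, 907 and 814 calls, in place of 1343. The SiO2 day 14 count of 12 was 7 without untreated replicate 1, 7 without untreated replicate 2 and 6 without SiO2 day 14 replicate 2, where all genes gave 2023, 2251 and 2103, in place of 2807. Over all 12 comparisons the members had 156 calls, of which 73 kept an adjusted p under 0.05 with each library left out in turn and 83 did not.

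**Figure D1:**
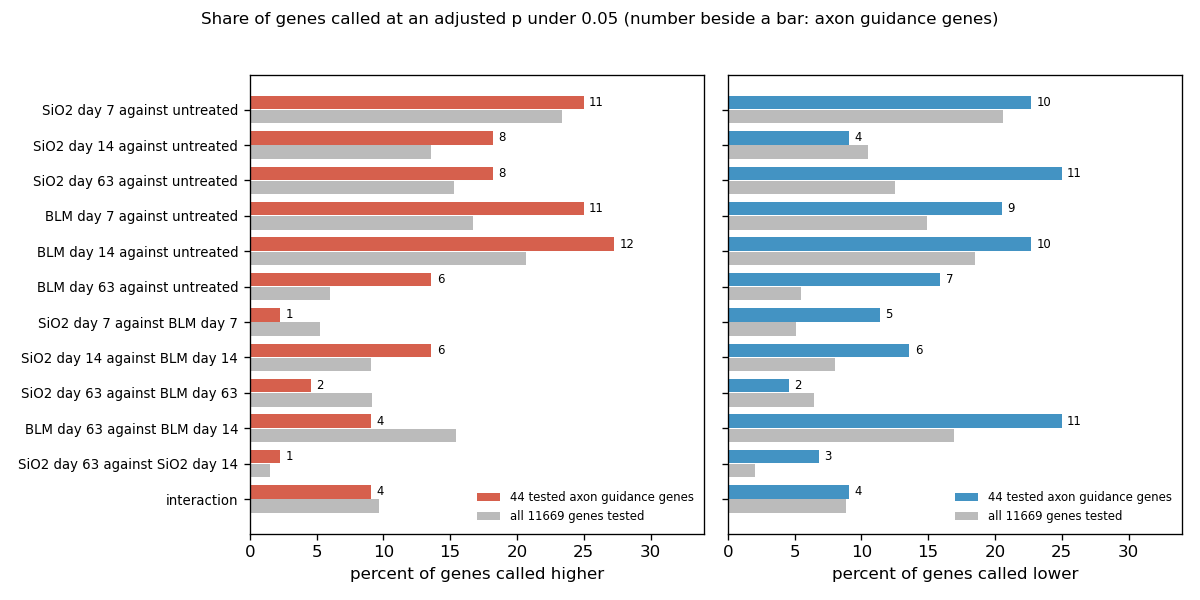
Percent of genes called higher (left) and lower (right) at an adjusted p under 0.05 in each of the 12 comparisons, for the 44 tested axon guidance genes (coloured, with their number) and all 11669 genes tested (grey). At BLM day 14, 12 guidance genes were higher and 10 lower, and at BLM day 63 6 were higher and 7 lower.

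Among the semaphorins, Sema5a rose early in both models and Sema6c fell in all 6 treated groups, while Sema7a, nearly absent from untreated cells, reached a few CPM at SiO2 day 7 and BLM day 7 and 14. Of the 20 semaphorins 11 were tested. Against untreated, 3 rose and 3 fell at SiO2 day 7, 1 and 1 at SiO2 day 14, 1 and 2 at SiO2 day 63, 4 and 3 at BLM day 7, 4 and 2 at BLM day 14, and 1 and 2 at BLM day 63. Called in either direction were 54.5%, 18.2%, 27.3%, 63.6%, 54.5% and 27.3% of the 11, in that order of groups. The shares of all genes were 44.1%, 24.1%, 27.8%, 31.6%, 39.3% and 11.5%. Shares of so few genes move much with 1 call. Of the 41 semaphorin calls over the 12 comparisons, 24 held without each library. Sema5a (chr15:32244810-32696341 in mm10, plus strand, a membrane semaphorin with thrombospondin repeats) was called higher at 3 early points. Sema5a had 30.6, 36.2 and 46.4 CPM in untreated lungs, 54.2, 73.6 and 59.7 CPM at SiO2 day 7, 49.3, 39.4 and 34.7 CPM at day 14 and 32.1, 24.8 and 32.7 CPM at day 63. With BLM, Sema5a had 63.3, 66.6 and 69.4 CPM at BLM day 7, 85.5, 66.9 and 66.6 CPM at day 14 and 35.8, 27.8 and 33.4 CPM at day 63. Every SiO2 day 7, BLM day 7 and BLM day 14 library lay above the 3 untreated ones, and the day 63 libraries of both models overlapped them. The change against untreated was 0.76 ± 0.16, adjusted p = 0.000286, at SiO2 day 7, 0.84 ± 0.16, adjusted p = 0.000139, at BLM day 7 and 0.98 ± 0.16, adjusted p = 1.28e-05, at BLM day 14. At day 63 it was -0.31 ± 0.17, adjusted p = 0.192, in SiO2 and -0.19 ± 0.17, adjusted p = 0.546, in BLM.

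Sema6c (chr3:95160457-95174024, plus strand), a transmembrane class 6 semaphorin that binds class A plexins, was lower in every treated group. Sema6c had 23.3, 23.1 and 23.4 CPM in untreated lungs, 14.3, 11.4 and 6.33 CPM at SiO2 day 7, 14.9, 13.6 and 12.4 CPM at day 14 and 9.72, 13.6 and 12.9 CPM at day 63. With BLM, Sema6c had 9.29, 8.72 and 12.0 CPM at BLM day 7, 9.89, 9.56 and 11.3 CPM at day 14 and 15.9, 15.5 and 13.8 CPM at day 63. No treated library reached the lowest untreated one. The changes ran from -0.63 ± 0.20, adjusted p = 0.0362, at BLM day 63 to -1.22 ± 0.21, adjusted p = 4.28e-05, at BLM day 7. The BLM day 63 call ended without any 1 of its 6 libraries (adjusted p = 0.0558 to 0.138), whereas the calls at the other 5 points held without each library.

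Sema3d (chr5:12383385-12588948, plus strand), a secreted class 3 semaphorin, was the one member called in both directions against untreated. Sema3d had 14.8, 12.1 and 17.3 CPM in untreated lungs, 4.26, 10.1 and 12.4 CPM at SiO2 day 7, 19.0, 22.4 and 14.8 CPM at day 14 and 20.0, 21.03 and 20.0 CPM at day 63. With BLM, Sema3d had 14.5, 22.4 and 19.6 CPM at BLM day 7, 34.3, 32.6 and 29.3 CPM at day 14 and 17.9, 35.6 and 28.5 CPM at day 63. BLM day 14 and 63 lay above all untreated libraries, and SiO2 day 7 overlapped them by 1 library. It rose at BLM day 14 (1.15 ± 0.25, adjusted p = 0.000357) and at BLM day 63 (0.91 ± 0.25, adjusted p = 0.0125), and was called lower at SiO2 day 7 (-0.69 ± 0.28, adjusted p = 0.0464). The BLM day 63 call ended without untreated replicate 2, BLM day 63 replicate 2 or 3 (adjusted p = 0.0501 to 0.11). The SiO2 day 7 call ended without any 1 of untreated replicate 1 or 3, SiO2 day 7 replicate 1 or 2 (adjusted p = 0.0525 to 0.3).

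Sema7a (chr9:57940112-57962865, plus strand), a membrane semaphorin with a lipid anchor that binds beta-1 integrins and plexin C1, stayed below 10 CPM throughout and was picked after its values were seen, for the largest fitted changes among the members. It passed the filter on low counts through treated libraries alone, since no untreated library held more than 0.251 CPM. Its counts in the 3 libraries together were 1 in untreated lungs, 57, 7 and 26 at SiO2 day 7, 14 and 63, and 44, 53 and 2 at BLM day 7, 14 and 63. Sema7a had 0, 0.251 and 0 CPM in untreated lungs, 3.51, 5.05 and 6.08 CPM at SiO2 day 7, 0.297, 1.07 and 0.486 CPM at day 14 and 2.63, 1.86 and 2.00 CPM at day 63. With BLM, Sema7a had 1.74, 6.87 and 3.80 CPM at BLM day 7, 6.00, 4.48 and 5.80 CPM at day 14 and 0, 0 and 0.445 CPM at day 63. All libraries of SiO2 day 7, SiO2 day 63, BLM day 7 and BLM day 14 lay above every untreated one, and BLM day 63 overlapped them. SiO2 day 14 replicate 1 and untreated replicate 2 held 1 count each, so these 2 groups were not apart in counts. At SiO2 day 14 the ratio to untreated was 6.22 (exact 95% interval of the counts 0.799 to 280), with no call. The ratio to untreated was 48.6 at SiO2 day 7 (exact 95% interval of the counts 8.38 to 1953), 21.5 at SiO2 day 63 (3.54 to 882), 42.3 at BLM day 7 (7.20 to 1707) and 54.0 at BLM day 14 (9.28 to 2172). The adjusted p at these points was 3.54e-06, 0.00117, 2.17e-05 and 2.64e-06. These intervals cover counting error only.

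Against untreated, calls that held without each library were also made for Sema4b, Sema6a and Sema4c. Sema4b, a class 4 transmembrane semaphorin, rose at SiO2 day 7 (1.37 ± 0.34, adjusted p = 0.00148) and BLM day 14 (1.42 ± 0.35, adjusted p = 0.00156) to 7.63 ± 1.12 and 7.95 ± 2.60 CPM, against 2.97 ± 0.402 CPM in untreated lungs (SD, n = 3 each). Sema6a, a class 6 member, rose at SiO2 day 14 (1.63 ± 0.34, adjusted p = 0.000555) to 8.91 ± 1.75 CPM, against 2.67 ± 1.31 CPM in untreated lungs. Sema4c, which binds plexin B2, fell at BLM day 7 (-0.70 ± 0.19, adjusted p = 0.00451) to 18.9 ± 1.76 CPM, against 30.5 ± 3.45 CPM in untreated lungs, and shares exon sequence with an opposite-strand gene. Sema4b and Sema6a were also called higher at BLM day 7, and Sema4c lower at BLM day 14 and 63. Each of these further calls ended without at least 1 library. Sema6d was called in no comparison.

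On the receptor side, neuropilin-1 was higher in most treated groups and Plxna2 lower. All 10 plexins and neuropilins were tested. Against untreated, 2 rose and 1 fell at SiO2 day 7, 1 and 1 at SiO2 day 14, 4 and 1 at SiO2 day 63, 3 and 2 at BLM day 7, 4 and 2 at BLM day 14, and 2 and 0 at BLM day 63. In that order, 30%, 20%, 50%, 50%, 60% and 20% were called, beside 44.1%, 24.1%, 27.8%, 31.6%, 39.3% and 11.5% of all genes. Of their 30 calls over the 12 comparisons, 13 held without each library. Plxna2 (chr1:194618218-194816869, plus strand), a receptor for class 6 semaphorins and, with neuropilins, for class 3, fell most. Plxna2 had 13.7, 21.9 and 13.1 CPM in untreated lungs, 6.27, 4.52 and 3.80 CPM at SiO2 day 7, 10.4, 7.46 and 10.7 CPM at day 14 and 8.94, 7.19 and 6.23 CPM at day 63. With BLM, Plxna2 had 9.58, 1.85 and 6.02 CPM at BLM day 7, 3.18, 4.48 and 4.70 CPM at day 14 and 10.7, 7.46 and 12.0 CPM at day 63. No treated library reached the lowest untreated value. The change was -1.76 ± 0.32, adjusted p = 4.88e-05, at SiO2 day 7, -1.52 ± 0.32, adjusted p = 0.000483, at BLM day 7 and -1.98 ± 0.34, adjusted p = 2.7e-05, at BLM day 14. At SiO2 day 63 it was -1.15 ± 0.30, adjusted p = 0.00414, and at SiO2 day 14 -0.79 ± 0.30, adjusted p = 0.0492. The SiO2 day 63 call ended without untreated replicate 2 (adjusted p = 0.0699). The SiO2 day 14 call ended without any 1 of untreated replicate 2, SiO2 day 14 replicate 1 or 2 and SiO2 day 14 replicate 3 (adjusted p = 0.0568 to 0.336). At BLM day 63 the change was -0.70 ± 0.29, adjusted p = 0.125.

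Nrp1, the neuropilin that also binds VEGF, had 332 ± 20.4 CPM at SiO2 day 63 and 308 ± 13.4 CPM at BLM day 63, against 222 ± 27.7 CPM in untreated lungs (SD, n = 3 each). It rose at SiO2 day 63 (0.58 ± 0.10, adjusted p = 3.17e-05), BLM day 14 (0.37 ± 0.10, adjusted p = 0.00401) and BLM day 63 (0.48 ± 0.10, adjusted p = 0.0014), calls that held without each library. Its SiO2 day 14 call ended without any 1 of untreated replicate 1 or 2, SiO2 day 14 replicate 1 or 2 (adjusted p = 0.0524 to 0.125), and its BLM day 7 call without untreated replicate 2, BLM day 7 replicate 1 or 3 (adjusted p = 0.0519 to 0.105). Nrp2 was called in no comparison, and its largest change was 0.38 ± 0.14 at BLM day 63. Plxnb1, a receptor for Sema4d, rose at SiO2 day 7 (2.21 ± 0.59, adjusted p = 0.00295) to 2.91 ± 0.782 CPM, against 0.580 ± 0.152 CPM in untreated lungs, and overlaps an opposite-strand gene. Plxnb2, a receptor for class 4 semaphorins, rose at SiO2 day 7 (0.70 ± 0.16, adjusted p = 0.000595), and Plxnc1, the plexin that binds Sema7a, at SiO2 day 63 (0.47 ± 0.14, adjusted p = 0.01). Plxnd1, which binds Sema3e, fell at BLM day 14 (-0.63 ± 0.12, adjusted p = 7.3e-05) to 159 ± 12.3 CPM, against 246 ± 21.02 CPM in untreated lungs. Those 4 plexin calls held without each library, and Plxna3 and Plxna4 were called in no comparison. Against untreated, Plxnb1 was also called higher at SiO2 day 63 (1.86), BLM day 7 (1.70) and BLM day 14 (1.92). Plxnb2 was too (0.49, 0.58 and 0.54, in that order). Plxnc1 was also called higher at BLM day 63 (0.48, adjusted p = 0.0193), and Plxnd1 lower at BLM day 7 (-0.36, adjusted p = 0.0184). Each of these further plexin calls ended without at least 1 library. The endothelial marker list summed to 14.9 to 26.6 CPM at SiO2 day 7 and 17.3 to 19.7 CPM at BLM day 14, against 35.5 to 38.9 CPM in untreated libraries, nearly all of it Tek and Ramp2. Pecam1 averaged no more than 0.240 CPM in any group and Cdh5 no more than 0.263 CPM.

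Slit2 and Slit3, secreted ligands of the same receptors, went opposite ways in most treated groups. Slit2 rose in all 6 treated groups and Slit3 fell in 5. Of the 5 Slits and Robos 4 were tested, and of their 19 calls 11 held without each library. Against untreated, 1 rose and 1 fell at SiO2 day 7, SiO2 day 63 and BLM day 7, 14 and 63, and at SiO2 day 14 2 rose and 0 fell. That was 50% of the 4 in each group. Of all genes, 44.1%, 24.1% and 27.8% were called at SiO2 day 7, 14 and 63. At BLM day 7, 14 and 63 the all-gene share was 31.6%, 39.3% and 11.5%. Slit2 had 49.5, 42.5 and 42.1 CPM in untreated lungs, 64.0, 64.0 and 58.0 CPM at SiO2 day 7, 67.5, 76.5 and 57.1 CPM at day 14 and 69.6, 62.6 and 60.1 CPM at day 63. With BLM, Slit2 had 72.3, 69.5 and 80.8 CPM at BLM day 7, 90.8, 90.8 and 94.8 CPM at day 14 and 71.2, 75.8 and 77.8 CPM at day 63. Every treated library lay above all 3 untreated ones. The changes of Slit2 (chr5:47983138-48307733, plus strand) ran from 0.47 ± 0.12, adjusted p = 0.00226, at SiO2 day 7 to 1.04 ± 0.12, adjusted p = 3.1e-08, at BLM day 14, and all 6 calls held without each library.

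Slit3 had 106, 137 and 105 CPM in untreated lungs, 62.0, 58.7 and 64.3 CPM at SiO2 day 7, 110.2, 109 and 135 CPM at day 14 and 41.5, 48.7 and 53.6 CPM at day 63. With BLM, Slit3 had 74.0, 77.1 and 91.3 CPM at BLM day 7, 86.9, 82.5 and 79.6 CPM at day 14 and 65.7, 47.9 and 42.2 CPM at day 63. SiO2 day 14 overlapped the untreated libraries, and every other treated library lay below them. Slit3 (chr11:35121224-35708507, plus strand) fell at SiO2 day 7 (-0.92 ± 0.14, adjusted p = 2.94e-06), SiO2 day 63 (-1.28 ± 0.14, adjusted p = 2.86e-08) and BLM day 63 (-1.17 ± 0.14, adjusted p = 1.14e-06), and these calls held without each library. It also fell at BLM day 7 (-0.53 ± 0.14, adjusted p = 0.00344) and BLM day 14 (-0.49 ± 0.14, adjusted p = 0.00504). The BLM day 7 call ended without untreated replicate 2 (adjusted p = 0.0633), and the BLM day 14 call without untreated replicate 2 (adjusted p = 0.0735). At SiO2 day 14 the change was 0.02 ± 0.14, adjusted p = 0.942. Of the receptors, Robo2 was called higher at SiO2 day 14 (0.46 ± 0.13, adjusted p = 0.00684) with 159 ± 21.2 CPM, against 115 ± 13.4 CPM in untreated lungs. This call ended without SiO2 day 14 replicate 2 (adjusted p = 0.0853). Robo1 was called in no comparison, with changes against untreated from -0.42 ± 0.20 at BLM day 63 to 0.36 ± 0.18 at SiO2 day 7.

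Netrin-1 fell and its receptor Unc5b rose at SiO2 day 7 and at BLM day 7 and 14. All 6 netrins and Unc5 receptors were tested. Against untreated, 1 rose and 2 fell at SiO2 day 7, 1 and 0 at SiO2 day 14, 0 and 1 at SiO2 day 63, 1 and 2 at BLM day 7, 1 and 3 at BLM day 14, and 1 and 0 at BLM day 63. In that order, 50%, 16.7%, 16.7%, 50%, 66.7% and 16.7% were called, beside 44.1%, 24.1%, 27.8%, 31.6%, 39.3% and 11.5% of all genes. Of their 24 calls, 14 held without each library. Ntn1 had 25.1, 32.2 and 33.2 CPM in untreated lungs, 7.78, 7.97 and 6.83 CPM at SiO2 day 7, 21.1, 25.8 and 34.5 CPM at day 14 and 14.5, 14.1 and 16.5 CPM at day 63. With BLM, Ntn1 had 23.2, 12.4 and 13.9 CPM at BLM day 7, 8.48, 12.0 and 17.96 CPM at day 14 and 32.9, 40.5 and 35.8 CPM at day 63. All SiO2 day 7, SiO2 day 63, BLM day 7 and BLM day 14 libraries lay below the untreated ones, while SiO2 day 14 and BLM day 63 overlapped them. Ntn1 (chr11:68209364-68400823, minus strand) fell at SiO2 day 7 (-1.99 ± 0.24, adjusted p = 6.4e-08), SiO2 day 63 (-0.99 ± 0.22, adjusted p = 0.000767), BLM day 7 (-0.86 ± 0.22, adjusted p = 0.00308) and BLM day 14 (-1.20 ± 0.23, adjusted p = 9.32e-05), and all 4 calls held without each library. The change was -0.13 ± 0.21, adjusted p = 0.703, at SiO2 day 14 and 0.28 ± 0.20, adjusted p = 0.432, at BLM day 63. The 6 mesothelial markers on the list, of which 5 were tested, summed to 126 to 179 CPM at SiO2 day 7, 395 to 515 CPM at SiO2 day 14, 222 to 254 CPM at SiO2 day 63, 269 to 375 CPM at BLM day 7, 385 to 439.9 CPM at BLM day 14 and 354 to 431 CPM at BLM day 63, against 515 to 640.0 CPM in untreated libraries. Upk1b made up most of each sum, with a mean of 467 CPM in untreated libraries, and none of the 6 was at 0 in any group. Of the 5 tested markers 0 were called higher and 5 lower at SiO2 day 7, 1 and 1 at SiO2 day 14, 0 and 3 at SiO2 day 63, 1 and 1 at BLM day 7, 0 and 2 at BLM day 14 and 0 and 4 at BLM day 63. In that order, 100%, 40%, 60%, 40%, 40% and 80% were called, beside 44.1%, 24.1%, 27.8%, 31.6%, 39.3% and 11.5% of all genes. Upk1b averaged 105, 302 and 194 CPM at SiO2 day 7, 14 and 63, and 190, 321 and 351 CPM at BLM day 7, 14 and 63. The part of these markers in the Ntn1 values was not tested.

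Unc5b had 2.07, 1.51 and 1.87 CPM in untreated lungs, 11.5, 9.03 and 14.7 CPM at SiO2 day 7, 3.86, 5.86 and 3.89 CPM at day 14 and 2.63, 4.53 and 4.67 CPM at day 63. With BLM, Unc5b had 4.35, 8.98 and 8.24 CPM at BLM day 7, 18.4, 17.3 and 25.1 CPM at day 14 and 3.48, 3.16 and 6.89 CPM at day 63. Every treated library lay above the 3 untreated ones, and the BLM day 14 libraries lay above those of all other groups. Unc5b (chr10:60762593-60831581, minus strand), a dependence receptor for netrin-1 also used by endothelium, rose at SiO2 day 7 (2.68 ± 0.37, adjusted p = 6.12e-07), BLM day 7 (1.98 ± 0.40, adjusted p = 0.000311) and BLM day 14 (3.47 ± 0.35, adjusted p = 2.71e-09). These calls held without each library. It was also called at SiO2 day 14 (1.31 ± 0.43, adjusted p = 0.0246) and BLM day 63 (1.34 ± 0.43, adjusted p = 0.0374), and not at SiO2 day 63 (1.12 ± 0.44, adjusted p = 0.0547). The SiO2 day 14 call ended without untreated replicate 1 or 2 or SiO2 day 14 replicate 2 (adjusted p = 0.0566 to 0.13). The BLM day 63 call ended without any 1 of untreated replicate 1 or 2, untreated replicate 3 and BLM day 63 replicate 3 (adjusted p = 0.0687 to 0.313). Proliferation genes summed to 220.2 to 307 CPM at SiO2 day 7, 187 to 230.3 CPM at BLM day 7 and 72.7 to 162 CPM at BLM day 14, against 8.81 to 17.1 CPM in untreated libraries. Pericyte and smooth muscle markers summed to 22.6 to 31.9 CPM at SiO2 day 7, 8.91 to 12.8 CPM at SiO2 day 14, 18.9 to 22.7 CPM at SiO2 day 63, 14.2 to 20.6 CPM at BLM day 7, 22.4 to 29.7 CPM at BLM day 14 and 7.22 to 9.47 CPM at BLM day 63, against 5.15 to 5.70 CPM in untreated libraries. The Schwann and neural list summed to 35.9 to 53.9 CPM at SiO2 day 7, 13.1 to 16.6 CPM at SiO2 day 14, 17.3 to 20.8 CPM at SiO2 day 63, 32.5 to 46.5 CPM at BLM day 7, 27.6 to 37.8 CPM at BLM day 14 and 9.46 to 12.7 CPM at BLM day 63, against 2.33 to 4.27 CPM in untreated libraries. Tubb3 made up most of the treated sums, at 41.3 CPM at SiO2 day 7 and 29.7 CPM at BLM day 14, against 2.11 CPM in untreated libraries. Cspg4 and Notch3 made up most of the pericyte sums at SiO2 day 7 and BLM day 14. Cspg4 averaged 8.44 and 13.9 CPM there, against 1.66 CPM in untreated libraries, and Notch3 10.6 and 8.15 CPM, against 1.13 CPM. Myh11 of that list averaged 4.93 and 1.83 CPM, against 2.67 CPM. Rgs5, Cnn1, Mcam and Higd1b of the pericyte list were at 0 in untreated libraries and averaged no more than 1.105 CPM in any group. Cdh19 of the Schwann list was at 0 at SiO2 day 7, SiO2 day 63 and BLM day 14. Epithelial markers summed to 21.3 to 31.1 CPM at SiO2 day 7 and 27.9 to 34.5 CPM at BLM day 7. Elsewhere their sum was 3.34 to 10.6 CPM in treated and 7.03 to 13.1 CPM in untreated libraries. Lymphocyte markers, mostly Ccl5, summed to 29.6 to 72.1 CPM at SiO2 day 7, against 3.28 to 5.02 CPM in untreated ones. Myeloid markers, mostly Tyrobp, summed to 17.98 to 32.4 CPM at SiO2 day 14, against an untreated 3.11 to 6.53 CPM. The lymphocyte sum at SiO2 day 14 was 23.1 to 33.8 CPM, and the myeloid sum at SiO2 day 7 9.11 to 13.5 CPM. At SiO2 day 63 lymphocyte sums were 31.4 to 43.9 CPM and myeloid 19.2 to 23.7 CPM. At BLM day 7 they were 29.5 to 53.4 and 14.5 to 23.1 CPM, and at BLM day 14 8.29 to 15.5 and 9.67 to 14.6 CPM. At BLM day 63 lymphocyte sums were 2.89 to 5.74 CPM and myeloid 2.67 to 5.72 CPM. The part of these lists in the Unc5b and Sema7a values was not tested. Unc5c had 19.2 ± 3.31 CPM at SiO2 day 7 and 19.7 ± 2.49 CPM at BLM day 14, against 28.5 ± 4.58 CPM in untreated lungs, and Unc5a was called in no comparison. Ntn4, a netrin that binds laminin, had 5.60 ± 2.06 CPM at SiO2 day 63 and 6.32 ± 2.85 CPM at BLM day 63, against 3.01 ± 1.20 CPM in untreated lungs, with no call against untreated. Ntn3 shares exon sequence with a same-strand gene, Tbc1d24, so its counts are uncertain.

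**Figure D2:**
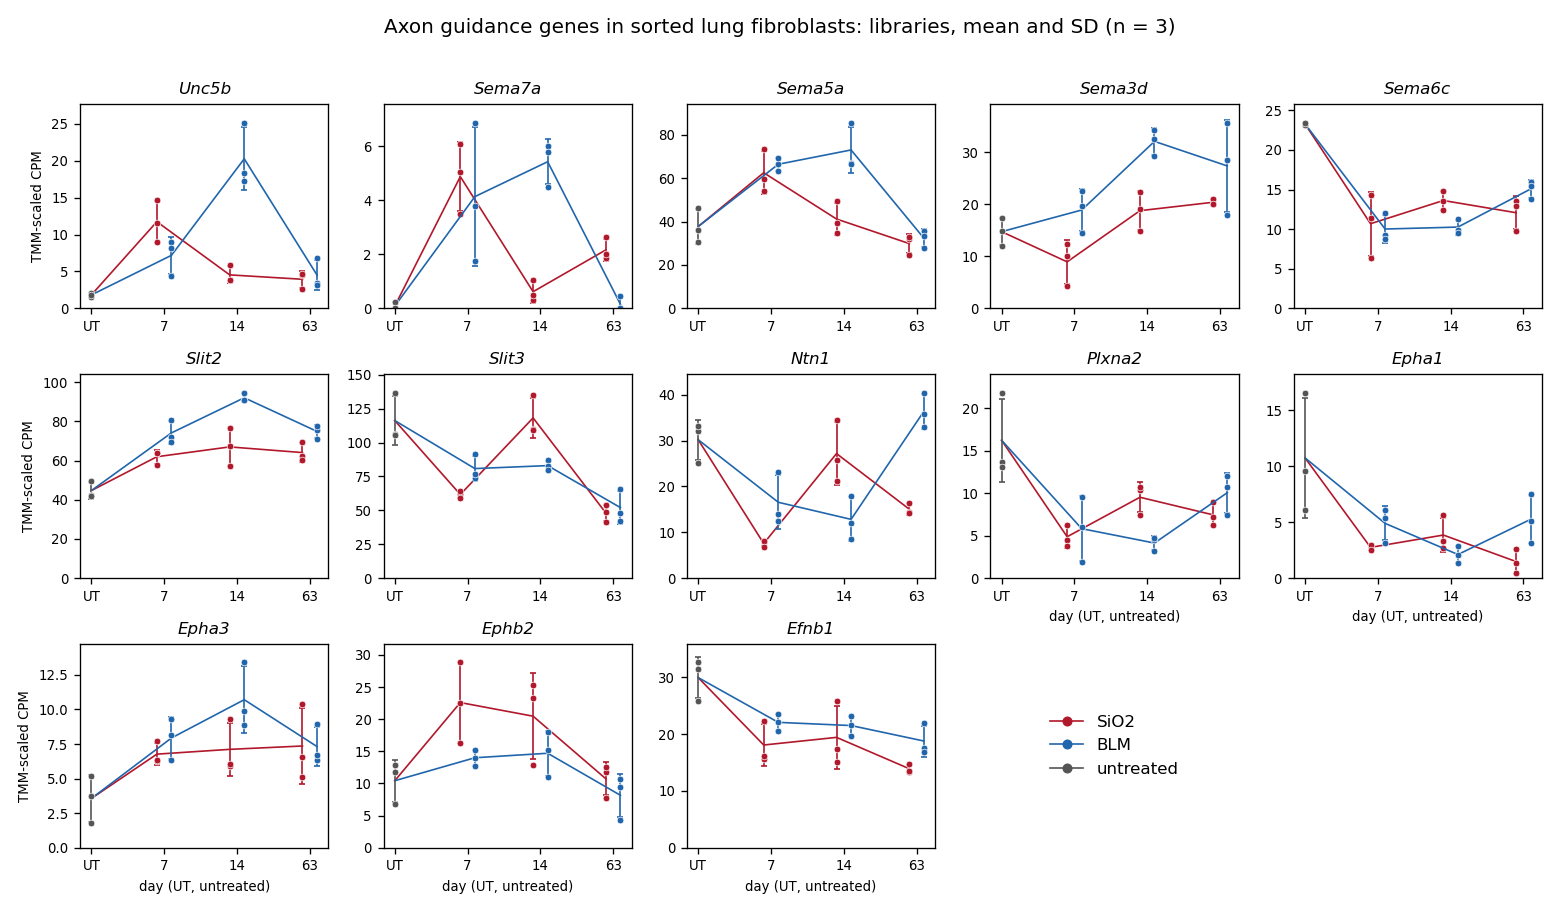
TMM-scaled CPM of 13 axon guidance genes in every library, by day (UT, untreated), for SiO2 (red), BLM (blue) and untreated (grey). Points are libraries, lines join group means and bars are SD (n = 3). Unc5b reaches 17.3 to 25.1 CPM at BLM day 14, while Ntn1 is at 6.83 to 7.97 CPM at SiO2 day 7.

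Among the ephrins, Efna4 was called higher and Efnb1 lower in 5 of the 6 treated groups each. Of the 8 ephrins 6 were tested. Against untreated, 1 rose and 1 fell at SiO2 day 7, 1 and 1 at SiO2 day 14, 1 and 3 at SiO2 day 63, 1 and 0 at BLM day 7, 1 and 1 at BLM day 14, and 0 and 2 at BLM day 63. In that order, 33.3%, 33.3%, 66.7%, 16.7%, 33.3% and 33.3% were called, beside 44.1%, 24.1%, 27.8%, 31.6%, 39.3% and 11.5% of all genes. Of their 19 calls over all comparisons, 5 held without each library. Efnb1 had 32.6, 31.4 and 25.8 CPM in untreated lungs, 22.3, 15.7 and 16.2 CPM at SiO2 day 7, 15.2, 17.3 and 25.8 CPM at day 14 and 13.4, 13.6 and 14.7 CPM at day 63. With BLM, Efnb1 had 22.1, 23.5 and 20.6 CPM at BLM day 7, 21.5, 19.7 and 23.2 CPM at day 14 and 21.9, 17.5 and 16.9 CPM at day 63. Of the treated libraries, only SiO2 day 14 replicate 3 reached the untreated range. Efnb1 (chrX:99136130-99148991, plus strand), a transmembrane ligand of EphB receptors, fell at SiO2 day 7 (-0.74 ± 0.18, adjusted p = 0.0011) and SiO2 day 63 (-1.12 ± 0.18, adjusted p = 1.95e-05), and both calls held without each library. It was also called lower at SiO2 day 14 (-0.63 ± 0.18, adjusted p = 0.00915), BLM day 14 (-0.49 ± 0.18, adjusted p = 0.029) and BLM day 63 (-0.69 ± 0.18, adjusted p = 0.00923). The SiO2 day 14 call ended without untreated replicate 1, SiO2 day 14 replicate 1 or 2 (adjusted p = 0.0516 to 0.0766). The BLM day 14 call ended without any 1 of untreated replicate 1 or 2, BLM day 14 replicate 1 or 2 (adjusted p = 0.0637 to 0.106). The BLM day 63 call ended without untreated replicate 1 or BLM day 63 replicate 3 (adjusted p = 0.059 to 0.0651).

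Efna4, a lipid-anchored ligand of EphA receptors, had 4.27 ± 0.433 CPM at SiO2 day 7, 4.22 ± 0.469 CPM at SiO2 day 63 and 4.80 ± 1.59 CPM at BLM day 14, against 1.08 ± 0.190 CPM in untreated lungs (SD, n = 3 each). It rose at SiO2 day 7 (1.92 ± 0.44, adjusted p = 0.000673), SiO2 day 63 (1.91 ± 0.44, adjusted p = 0.00124) and BLM day 14 (2.11 ± 0.44, adjusted p = 0.000285), and these calls held without each library. It was also called higher at SiO2 day 14 (1.48 ± 0.47, adjusted p = 0.0197) and BLM day 7 (1.26 ± 0.49, adjusted p = 0.046). Of these, the one at SiO2 day 14 ended without untreated replicate 2 or SiO2 day 14 replicate 2 (adjusted p = 0.0753 to 0.105), and with DESeq2 (adjusted p = 0.0551). The one at BLM day 7 ended without any 1 of untreated replicate 1 or 2, untreated replicate 3, BLM day 7 replicate 1 or 2 (adjusted p = 0.0756 to 0.166). It also ended with DESeq2 (adjusted p = 0.0988), upper quartile scaling (0.0561), no filter on low counts (0.0957) and the replicate block (0.0556). Its exons overlap an opposite-strand gene, 4731419I09Rik, and the strand setting of the counts is not given in the sources used here. Efnb2, an arterial EphB ligand, was called lower at BLM day 63 (-1.68 ± 0.45, adjusted p = 0.0134) and SiO2 day 63 (-1.10 ± 0.42, adjusted p = 0.0498). The BLM call ended without BLM day 63 replicate 1 or 3 (adjusted p = 0.0722 to 0.105), and the SiO2 call without any 1 of its 6 libraries (adjusted p = 0.0652 to 0.129). This SiO2 call also ended under 3 settings other than leaving out a library. Efna1 and Efna2 were called in no comparison.

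Among the Eph receptors, which are the ephrins' kinases, Epha1 was lower and Epha3 higher throughout, and Ephb2 was called higher at SiO2 day 7 and 14. Of 11 receptors 7 were tested. Against untreated, 3 rose and 2 fell at SiO2 day 7, 2 and 1 at SiO2 day 14, 1 and 3 at SiO2 day 63, 1 and 1 at BLM day 7, 1 and 1 at BLM day 14, and 1 and 2 at BLM day 63. In that order, 71.4%, 42.9%, 57.1%, 28.6%, 28.6% and 42.9% were called, beside 44.1%, 24.1%, 27.8%, 31.6%, 39.3% and 11.5% of all genes. Of 23 Eph receptor calls, 6 held without each library. Epha1 had 16.6, 9.55 and 6.09 CPM in untreated lungs, 2.76, 2.92 and 2.53 CPM at SiO2 day 7, 3.27, 2.66 and 5.59 CPM at day 14 and 2.63, 1.33 and 0.445 CPM at day 63. With BLM, Epha1 had 6.09, 3.17 and 5.39 CPM at BLM day 7, 2.83, 2.09 and 1.38 CPM at day 14 and 7.47, 3.16 and 5.11 CPM at day 63. The untreated libraries spread widely, and BLM day 7 and 63 overlapped them. Epha1 (chr6:42358487-42373268, minus strand, with exons that overlap Zyx on the other strand) fell at SiO2 day 7 (-2.01 ± 0.40, adjusted p = 0.000107), SiO2 day 63 (-2.94 ± 0.44, adjusted p = 4.83e-06) and BLM day 14 (-2.42 ± 0.43, adjusted p = 3.78e-05), calls that held without each library. It was also called at SiO2 day 14 (-1.51 ± 0.38, adjusted p = 0.00315), BLM day 7 (-1.20 ± 0.37, adjusted p = 0.0125) and BLM day 63 (-1.07 ± 0.35, adjusted p = 0.0468). The SiO2 day 14 call ended without untreated replicate 1 (adjusted p = 0.0818). The BLM day 7 call ended without untreated replicate 1 or BLM day 7 replicate 2 (adjusted p = 0.0874 to 0.201), and the BLM day 63 call without any 1 of untreated replicate 1 or 2, BLM day 63 replicate 2 or 3 (adjusted p = 0.0681 to 0.424).

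Epha3 had 5.18, 1.76 and 3.75 CPM in untreated lungs, 6.27, 7.70 and 6.33 CPM at SiO2 day 7, 5.94, 9.33 and 6.07 CPM at day 14 and 6.57, 10.4 and 5.12 CPM at day 63. With BLM, Epha3 had 9.29, 8.19 and 6.34 CPM at BLM day 7, 13.4, 9.86 and 8.84 CPM at day 14 and 8.96, 6.31 and 6.67 CPM at day 63. All treated libraries lay above the untreated ones except SiO2 day 63 replicate 3, which lay just below the highest of them. Epha3 (chr16:63543534-63864175, minus strand), a receptor for A-type ephrins, rose most at BLM day 14 (1.58 ± 0.33, adjusted p = 0.000309), and this call alone held without each library. Its other 5 changes lay between 0.93 ± 0.35 (SiO2 day 7) and 1.17 ± 0.35 (BLM day 7). The SiO2 day 7 call ended without untreated replicate 2 or 3 or SiO2 day 7 replicate 2 (adjusted p = 0.0502 to 0.245). The SiO2 day 14 call ended without untreated replicate 2 or 3 or SiO2 day 14 replicate 2 (adjusted p = 0.0554 to 0.248). The SiO2 day 63 call ended without untreated replicate 2 or SiO2 day 63 replicate 2 (adjusted p = 0.171 to 0.203). The BLM day 7 call ended without untreated replicate 2 (adjusted p = 0.103). The BLM day 63 call ended without any 1 of untreated replicate 2 or 3, BLM day 63 replicate 1 or 2 and BLM day 63 replicate 3 (adjusted p = 0.0589 to 0.291).

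Ephb2 had 6.73, 12.8 and 11.7 CPM in untreated lungs, 16.3, 22.6 and 28.9 CPM at SiO2 day 7, 25.3, 12.8 and 23.3 CPM at day 14 and 11.8, 12.5 and 7.79 CPM at day 63. With BLM, Ephb2 had 12.8, 14.0 and 15.2 CPM at BLM day 7, 10.9, 17.9 and 15.2 CPM at day 14 and 9.46, 4.30 and 10.7 CPM at day 63. All SiO2 day 7 libraries lay above the untreated ones, and the SiO2 day 14 libraries overlapped them by 1. Ephb2 (chr4:136647539-136835988, minus strand), a receptor for B-type ephrins, rose at SiO2 day 7 (1.13 ± 0.28, adjusted p = 0.00158) and was called at SiO2 day 14 (0.99 ± 0.29, adjusted p = 0.011). The day 14 call ended without untreated replicate 1 or SiO2 day 14 replicate 1 (adjusted p = 0.0684 to 0.116). In BLM the changes were 0.44 ± 0.30 at day 7, 0.53 ± 0.30 at day 14 and -0.30 ± 0.32 at day 63, with adjusted p = 0.288, 0.175 and 0.624. In SiO2 against BLM, Ephb2 was called at neither day 7 nor day 14. Of the 7 tested Eph receptors 0 were called there, beside 10.4% and 17.1% of all genes. Ephb4 was called in no comparison.

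**Figure D3:**
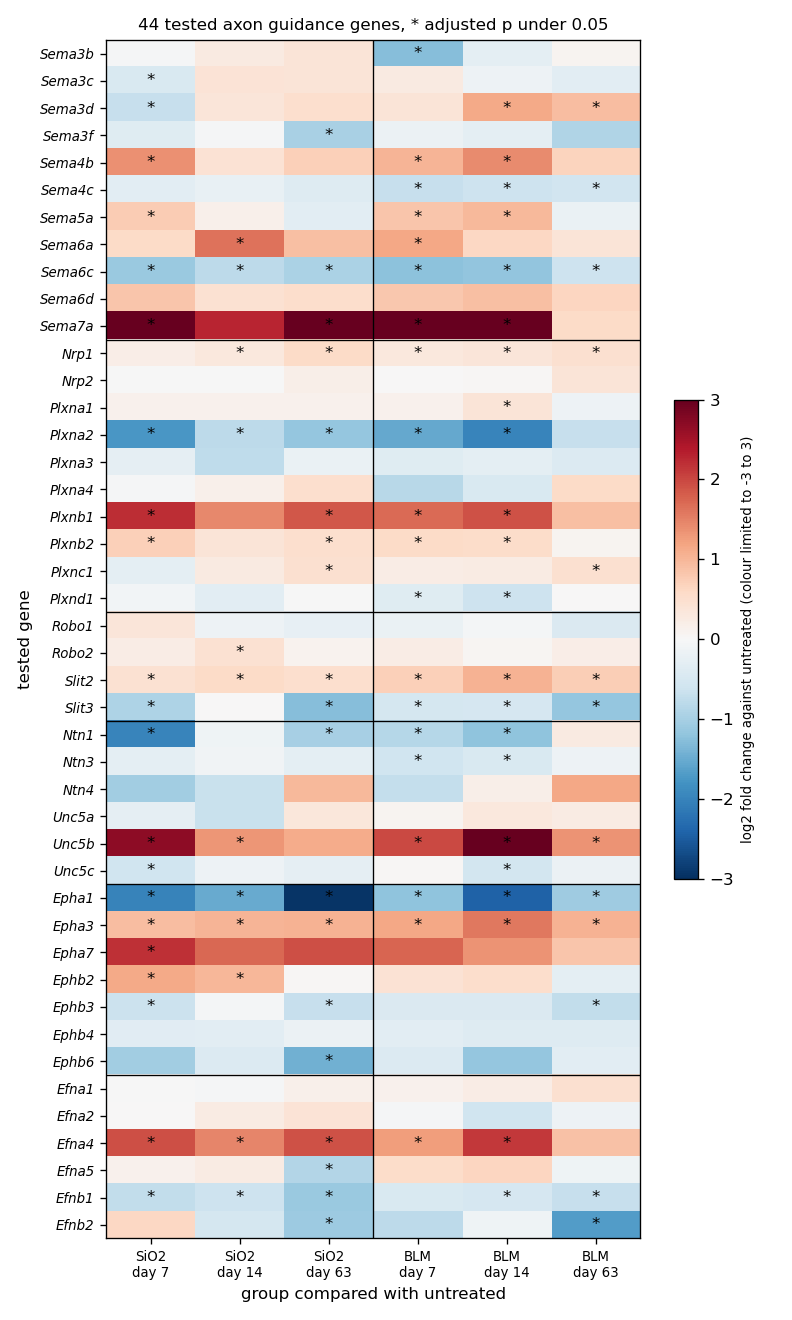
Log2 fold change against untreated (colour, limited to -3 to 3) of the 44 tested axon guidance genes in the SiO2 and BLM groups at day 7, 14 and 63, by family, with * for an adjusted p under 0.05. Slit2 and Epha3 are higher and Sema6c and Epha1 lower in all 6 columns, with a * in each.

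The remaining members called against untreated had calls that each ended without at least 1 library. Sema3b, a secreted semaphorin, was called lower at BLM day 7 (-1.29 ± 0.47, adjusted p = 0.0343), a call that ended without any 1 of untreated replicate 1 or 2, BLM day 7 replicate 1 or 2 (adjusted p = 0.0888 to 0.122). Sema3c was called lower at SiO2 day 7 (-0.46 ± 0.19, adjusted p = 0.0493), a call that ended without any 1 of untreated replicate 1 or 2, untreated replicate 3, SiO2 day 7 replicate 1 or 3 (adjusted p = 0.0516 to 0.218). Sema3f, a ligand of neuropilin-2, was called lower at SiO2 day 63 (-0.98 ± 0.33, adjusted p = 0.0234), a call that ended without untreated replicate 2, SiO2 day 63 replicate 2 or 3 (adjusted p = 0.0799 to 0.368). Plxna1, a receptor component for class 3 semaphorins, was called higher at BLM day 14 (0.39 ± 0.16, adjusted p = 0.0459), a call that ended without any 1 of its 6 libraries (adjusted p = 0.0543 to 0.139). Ntn3 was called lower at BLM day 7 (-0.60 ± 0.18, adjusted p = 0.00946), a call that ended without untreated replicate 1 or BLM day 7 replicate 3 (adjusted p = 0.0738 to 0.0847). Unc5c was called lower at SiO2 day 7 (-0.59 ± 0.17, adjusted p = 0.0047), a call that ended without untreated replicate 2 (adjusted p = 0.0577). Ntn3 and Unc5c were also called lower at BLM day 14, and Ephb3 at SiO2 day 7 and 63, and each of these calls ended without at least 1 library. Plxna1, Ntn3 and Unc5c did not move by more than 1 on the log2 scale. Epha7, a receptor for A-type ephrins, was called higher at SiO2 day 7, with 2.40 ± 1.42 CPM, against 0.421 ± 0.522 CPM in untreated lungs (adjusted p = 0.0197), a call that ended without any 1 of untreated replicate 1 or 3, SiO2 day 7 replicate 1 or 2 (adjusted p = 0.0644 to 0.0953). Ephb3 was called lower at BLM day 63 (-0.73 ± 0.22, adjusted p = 0.0269), a call that ended without any 1 of untreated replicate 1 or 2, BLM day 63 replicate 1 or 3 (adjusted p = 0.0664 to 0.17). Ephb6, an Eph receptor without kinase activity, was called lower at SiO2 day 63 (-1.45 ± 0.53, adjusted p = 0.0401), a call that ended without any 1 of untreated replicate 3, SiO2 day 63 replicate 1 or 2 and SiO2 day 63 replicate 3 (adjusted p = 0.0703 to 0.192). Like Epha1, Ephb3 and Ephb6 had no higher call against untreated. Efna5, a ligand of EphA receptors, was called lower at SiO2 day 63 (-0.89 ± 0.32, adjusted p = 0.0351), a call that ended without any 1 of untreated replicate 2, SiO2 day 63 replicate 1 or 2 and SiO2 day 63 replicate 3 (adjusted p = 0.0627 to 0.284). Settings other than leaving out a library ended some calls too. For Plxna1 at BLM day 14 this held for 5 of them, for Sema3c at SiO2 day 7 for 3. For Ephb6 and Efna5 at SiO2 day 63 it held for 2 each. Among the calls given earlier, 1 such setting ended those of Sema6c, Epha1 and Epha3 at BLM day 63. It was also 1 for Plxna2, Nrp1 and Epha3 at SiO2 day 14 and Efnb1 at BLM day 14.

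Set directly against each other, SiO2 and BLM fibroblasts differed in 6, 12 and 4 guidance genes at day 7, 14 and 63. At day 7, 1 member was higher and 5 were lower in SiO2 than in BLM, beside 5.29% and 5.1% of all genes. At day 14, 6 were higher and 6 lower, beside 9.06% and 8.03%. At day 63, 2 were higher and 2 lower, beside 9.13% and 6.44%. The day 7 count was 3 without SiO2 day 7 replicate 3, and the day 14 count was 7 without BLM day 14 replicate 1 and 7 without SiO2 day 14 replicate 3. All genes gave 842 calls in place of 1212 in the first case, and 1372 and 1443 in place of 1994 at day 14. At day 14, Unc5b (-2.16 ± 0.29, adjusted p = 1.78e-06), Sema7a (-3.05 ± 0.56, adjusted p = 0.000164) and Sema5a (-0.83 ± 0.16, adjusted p = 0.000243) were lower in SiO2 than in BLM, and Ntn1 (1.07 ± 0.23, adjusted p = 0.00098) was higher. These 4 held without each library. Slit3 was higher (0.51 ± 0.14, adjusted p = 0.00829) and Slit2 lower (-0.46 ± 0.11, adjusted p = 0.00432) in SiO2 at that time. The Slit3 call ended without SiO2 day 14 replicate 3 (adjusted p = 0.0734), and the Slit2 call without SiO2 day 14 replicate 3 (adjusted p = 0.0524). Plxna2 was called higher (1.18 ± 0.36, adjusted p = 0.0218), and this ended without BLM day 14 replicate 1, SiO2 day 14 replicate 1 or 3 (adjusted p = 0.0601 to 0.0953).

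At day 63, Ntn1 was lower in SiO2 than in BLM (-1.27 ± 0.21, adjusted p = 4.77e-05), and Sema7a was higher, with 26 counts in the SiO2 libraries and 2 in the BLM libraries, a ratio of 12.9 (exact 95% interval 3.24 to 113) and an adjusted p of 0.00252. Sema3c, a secreted class 3 semaphorin, was higher (0.72 ± 0.18, adjusted p = 0.00427) with 22.9 ± 4.46 CPM in SiO2 and 13.9 ± 0.329 CPM in BLM. These 3 calls held without each library. Epha1 was lower (-1.88 ± 0.48, adjusted p = 0.00612), a call that ended without BLM day 63 replicate 1 or SiO2 day 63 replicate 3 (adjusted p = 0.0582 to 0.0665). At day 7, Sema3d (-1.08 ± 0.27, adjusted p = 0.00646) and Ntn1 (-1.13 ± 0.26, adjusted p = 0.00321) were called lower in SiO2 than in BLM. The Sema3d call ended without SiO2 day 7 replicate 1 (adjusted p = 0.0576), and the Ntn1 call without BLM day 7 replicate 1 (adjusted p = 0.0667). Sema3c, higher in SiO2 at day 63, was called lower in SiO2 than in BLM at day 7 (-0.74, adjusted p = 0.00713). At day 14 it was called higher (0.58, adjusted p = 0.0246). Both of these Sema3c calls ended without at least 1 library.

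The change between day 14 and day 63 was tested within each model. In SiO2, 1 member was higher and 3 were lower at day 63 than at day 14, beside 1.53% and 2% of all genes. In BLM, 4 were higher and 11 lower, beside 15.4% and 16.9%. The SiO2 count of 4 was 1 without SiO2 day 14 replicate 3 and 2 without SiO2 day 63 replicate 1, 2 or 3, and 7 with no filter on low counts. All genes gave 411 calls there, 231 without SiO2 day 14 replicate 3, 265, 201 and 249 without SiO2 day 63 replicate 1, 2 and 3, and 600 with no filter. The BLM count of 15 was 9 without BLM day 14 replicate 3, where all genes gave 3280 calls in place of 3768. In SiO2, Slit3 fell (-1.30 ± 0.14, adjusted p = 9.23e-07), the 1 call of that comparison that held without each library. In BLM, Slit3 (-0.67 ± 0.14, adjusted p = 0.00047), Unc5b (-2.13 ± 0.29, adjusted p = 6.97e-07) and Sema5a (-1.16 ± 0.16, adjusted p = 9.45e-07) fell and Ntn1 (1.48 ± 0.22, adjusted p = 4.34e-06), Plxna2 (1.28 ± 0.36, adjusted p = 0.00626) and Plxnd1 (0.65 ± 0.12, adjusted p = 6.69e-05) rose, and these held without each library.

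The difference between those changes, SiO2 minus BLM, was tested as an interaction. It was called in 8 members, 4 positive and 4 negative, beside 9.7% and 8.81% of all genes, and the count was 5 without SiO2 day 14 replicate 3, where all genes gave 1775 calls in place of 2160. Ntn1 had -2.33 ± 0.31, adjusted p = 1.51e-06: it was -0.86 ± 0.22 at day 63 against day 14 in SiO2 and 1.48 ± 0.22 in BLM. Unc5b had 1.94 ± 0.46, adjusted p = 0.00268, with -0.19 ± 0.35 in SiO2 and -2.13 ± 0.29 in BLM. Plxna2 had -1.64 ± 0.48, adjusted p = 0.0152, with -0.36 ± 0.32 in SiO2 and 1.28 ± 0.36 in BLM. Epha1 had -2.79 ± 0.69, adjusted p = 0.00399, with -1.43 ± 0.51 in SiO2 and 1.36 ± 0.47 in BLM. Sema7a was also called, at an adjusted p of 8.6e-06, with 26 counts at day 63 and 7 at day 14 in SiO2, and 2 at day 63 and 53 at day 14 in BLM. These 5 held without each library. For Sema5a (0.71 ± 0.23, adjusted p = 0.028), the call ended without any 1 of BLM day 14 replicate 1, SiO2 day 14 replicate 2 or 3, BLM day 63 replicate 2, SiO2 day 63 replicate 1 or 3 (adjusted p = 0.0506 to 0.0942). For Slit3 (-0.62 ± 0.20, adjusted p = 0.0277), it ended without any 1 of BLM day 14 replicate 3, SiO2 day 14 replicate 3, BLM day 63 replicate 1 and SiO2 day 63 replicate 1 (adjusted p = 0.0606 to 0.165). For Efna4 (1.66 ± 0.52, adjusted p = 0.0226), it ended without BLM day 14 replicate 3, SiO2 day 14 replicate 3 or BLM day 63 replicate 2 (adjusted p = 0.0644 to 0.104).

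**Figure D4:**
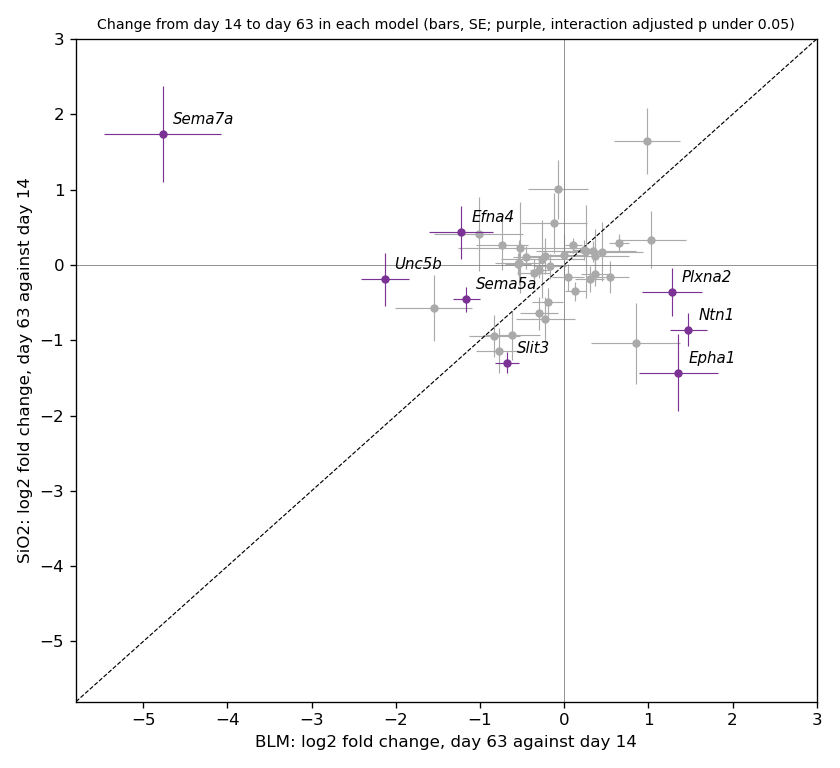
Log2 fold change of day 63 against day 14 in SiO2 (vertical axis) and in BLM (horizontal axis) for the 44 tested axon guidance genes, with SE bars. Purple marks the 8 genes with an interaction adjusted p under 0.05, and the dashed line marks equal change. Ntn1, Plxna2 and Epha1 lie right of 0 in BLM and below 0 in SiO2, and Sema7a lies at -4.77 in BLM and 1.74 in SiO2.

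Start-site sequences are shown for 4 members chosen after their values were seen, since they rose or moved in opposite ways: Unc5b and Sema7a, and the ligands Slit2 and Slit3. They are RefSeq promoters of 300 bases in GRCm38.p6, each on its gene's strand: Unc5b chr10:60831532-60831831 (minus), Sema7a chr9:57939862-57940161 (plus), Slit2 chr5:47982905-47983204 (plus) and Slit3 chr11:35121206-35121505 (plus). Capitals mark matches, on either strand, to the GC box (GGGCGG) and the TATA box (TATAAA).
Unc5b: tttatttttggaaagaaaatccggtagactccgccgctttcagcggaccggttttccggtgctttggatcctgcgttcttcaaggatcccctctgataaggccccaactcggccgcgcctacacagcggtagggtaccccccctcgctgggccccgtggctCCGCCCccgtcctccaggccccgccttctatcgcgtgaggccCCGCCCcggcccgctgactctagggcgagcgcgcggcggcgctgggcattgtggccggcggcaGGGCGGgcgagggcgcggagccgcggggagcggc
Sema7a: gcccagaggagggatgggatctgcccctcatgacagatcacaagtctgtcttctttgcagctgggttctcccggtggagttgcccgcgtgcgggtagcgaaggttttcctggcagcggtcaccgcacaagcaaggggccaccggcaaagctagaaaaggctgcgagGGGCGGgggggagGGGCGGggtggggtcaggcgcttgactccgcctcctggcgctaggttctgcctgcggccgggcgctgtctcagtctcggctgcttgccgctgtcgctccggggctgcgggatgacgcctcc
Slit2: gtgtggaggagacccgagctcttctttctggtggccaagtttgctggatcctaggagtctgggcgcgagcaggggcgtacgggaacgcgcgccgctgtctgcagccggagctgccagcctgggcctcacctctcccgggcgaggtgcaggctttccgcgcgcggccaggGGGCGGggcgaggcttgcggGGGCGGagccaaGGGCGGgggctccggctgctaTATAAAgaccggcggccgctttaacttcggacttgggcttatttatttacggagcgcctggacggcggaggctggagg
Slit3: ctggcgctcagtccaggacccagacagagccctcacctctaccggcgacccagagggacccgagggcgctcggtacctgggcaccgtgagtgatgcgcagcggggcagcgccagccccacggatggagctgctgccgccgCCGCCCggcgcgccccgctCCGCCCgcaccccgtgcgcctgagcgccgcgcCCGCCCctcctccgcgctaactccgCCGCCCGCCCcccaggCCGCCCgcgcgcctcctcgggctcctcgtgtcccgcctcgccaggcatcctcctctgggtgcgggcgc

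Unc5b held 3 GC boxes, Sema7a 2, Slit2 3 and a TATA box, and Slit3 6, of which 1 pair overlapped. The motifs AP-1 (TGANTCA), TEAD (GGAATG), SMAD (GTCTAGAC) and E-box (CACGTG) were searched first and had no match in the 4 windows. The GC and TATA boxes were added after that, with the sequences in view. RefSeq matched 52 of the 60 members, with 68 promoters. A GC box was present in 72.1% of those, in 62.9% of the promoters of genes tested and in 35.7% of all promoters. A TATA box was present in 2.94%, 7.09% and 13.6%. Of the other motifs, AP-1 was present in 4.41%, 5.07% and 7.81%, TEAD in 13.2%, 12.4% and 14.7%, the E-box in 5.88%, 9.8% and 7.15%, and SMAD in 0%, 0.24% and 0.213%. A match describes the letters in the window and shows no binding.

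Other genes of the pathway were counted from 2 lists. The genes named below were picked from each list for the smallest adjusted p in any comparison. Their adjusted p-values carry that selection and do not stand for the lists. Of 33 co-receptors, modulators and other guidance cues 27 were tested. Against untreated, 11 rose and 8 fell at SiO2 day 7, 10 and 3 at SiO2 day 14, and 10 and 4 at SiO2 day 63. It was 10 and 8 at BLM day 7, 9 and 6 at BLM day 14, and 4 and 4 at BLM day 63. Of all genes, 44.1%, 24.1%, 27.8%, 31.6%, 39.3% and 11.5% were called, in that order of groups. Of these 27 the shares were 70.4%, 48.1%, 51.9%, 66.7%, 55.6% and 29.6%. Their median log2 fold change was -0.09 at SiO2 day 7, 0.35 at SiO2 day 14, 0.26 at SiO2 day 63, 0.06 at BLM day 7, 0.03 at BLM day 14 and 0.16 at BLM day 63, against 0.04, 0.03, 0.02, 0.02, 0.02 and 0.01 over all genes tested, in the same order of groups. Rgma, a lipid-anchored repulsive cue that binds neogenin, had a mean of 104 CPM at SiO2 day 7 and 125 CPM at BLM day 14, against 354 CPM in untreated lungs. Its changes were -1.76 ± 0.14, adjusted p = 8.48e-12, in SiO2 and -1.50 ± 0.14, adjusted p = 3.62e-10, in BLM. Cxcl12, a chemokine that also guides axons, rose at SiO2 day 63 (2.72 ± 0.16, adjusted p = 1.02e-13) and at BLM day 63 (0.76 ± 0.17, adjusted p = 0.00357). Sdc1, a heparan sulfate proteoglycan, rose at SiO2 day 7 (5.20 ± 0.36, adjusted p = 5.01e-13), and Itga1, a collagen-binding integrin subunit, at SiO2 day 63 (3.37 ± 0.22, adjusted p = 6.25e-13). Of 58 intracellular effectors 52 were tested. Against untreated, 17 rose and 6 fell at SiO2 day 7, 9 and 3 at SiO2 day 14, and 11 and 6 at SiO2 day 63. It was 17 and 7 at BLM day 7, 21 and 7 at BLM day 14, and 4 and 2 at BLM day 63. The all-gene shares, in that order, were 44.1%, 24.1%, 27.8%, 31.6%, 39.3% and 11.5%. Of these 52 the shares were 44.2%, 23.1%, 32.7%, 46.2%, 53.8% and 11.5%. Their median was 0.21 at SiO2 day 7, 0.16 at SiO2 day 14, 0.10 at SiO2 day 63, 0.24 at BLM day 7, 0.36 at BLM day 14 and 0.06 at BLM day 63, beside the same medians of all genes. Mical2, an actin-oxidizing enzyme of the family that acts below plexins, rose at BLM day 14 (3.18 ± 0.29, adjusted p = 3.06e-10) to 30.9 CPM, against 3.24 CPM in untreated lungs. Dpysl2, a collapsin response mediator protein, fell at SiO2 day 7 (-1.15 ± 0.12, adjusted p = 2.32e-09), as did the actin-binding protein gene Ablim1 (-1.82 ± 0.12, adjusted p = 1.31e-13). Cfl1, the actin-severing cofilin, rose at SiO2 day 7 (1.08 ± 0.10, adjusted p = 2.93e-10).

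The 16 untested members were Efna3, Efnb3, Epha2, Epha4, Epha5, Ephb1, Sema3a, Sema3e, Sema3g, Sema4a, Sema4d, Sema4f, Sema4g, Sema5b, Sema6b and Slit1. Their highest group mean was 2.05 CPM, and their differences between groups were not tested at this depth. Over the 7 group means, 37 genes ranked the groups exactly as Sema7a did (Spearman 1), and Ube2v1 (0.98) and Ttc39b (0.97) were among the 3 with the highest Pearson correlation of log2 levels.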

How the data were processed

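Fibroblasts were sorted from digested lungs and 3′SAGE-seq tags were sequenced on an Ion Proton, per the labels' protocols. The deposited files, 1 for each library, held raw read counts by gene symbol. Bowtie2 2.2.5 and mm10 are named in the submitters' processing notes, and the annotation, counting program, strand and filters are not given in the sources used here. Members that overlap or resemble other genes are therefore uncertain.

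Genes were filtered with filterByExpr, scaled by TMM and fitted in edgeR 4.0.16 (R 4.3.3) by the quasi-likelihood test, with 7 groups over 21 libraries (14 residual degrees of freedom, biological coefficient of variation 12%). SE is the absolute log2 fold change over the square root of F. P-values were adjusted over 11669 genes. The steps were tested on simulated counts. Alternatives were DESeq2 1.42.0, RLE and upper quartile scaling, no filter, a replicate block and leaving out each library. Values in every library were printed for members called with a log2 fold change of at least 1 in size and a group mean of at least 10 CPM, and for Sema7a. Where a group held 1 to 3 counts of a gene, the ratio of counts is given with an exact interval. Members, lists and rule were chosen with earlier results of these data known. Positions are from GENCODE vM21, which matched all 60 members.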

Additional observations from a re-analysis of the deposited data

Results flagged for a closer look

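In 8 members the change from day 14 to day 63 differed between SiO2 and BLM by the interaction test of edgeR's quasi-likelihood model, given here as the SiO2 change minus the BLM change on the log2 scale. It was negative for Ntn1 (-2.33 ± 0.31, adjusted p = 1.51e-06), Epha1 (-2.79 ± 0.69, adjusted p = 0.00399), Plxna2 (-1.64 ± 0.48, adjusted p = 0.0152) and Slit3 (-0.62 ± 0.20, adjusted p = 0.0277). It was positive for Unc5b (1.94 ± 0.46, adjusted p = 0.00268), Efna4 (1.66 ± 0.52, adjusted p = 0.0226), Sema5a (0.71 ± 0.23, adjusted p = 0.028) and Sema7a (6.51 ± 0.97, adjusted p = 8.6e-06). The Sema7a value rests on 2 counts at BLM day 63 and 7 at SiO2 day 14, and its size depends on the prior count of the model. The calls of Slit3, Efna4 and Sema5a did not hold without some single libraries, and the cause of these differences was not tested.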

How the results depend on the processing

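None of the 156 called member results changed direction under DESeq2, RLE or upper quartile scaling, no filter on low counts, the replicate block or leaving out 1 library. DESeq2 ended 16 of 155 calls, RLE 1, upper quartile 8, no filter 13 and the replicate block 6 of 156. Leaving out 1 library ended 241 of 984 called values, and 73 results held under every setting. The number of members called, with each library left out, was 17 to 20 (21 with all) for SiO2 day 7, 6 to 12 (12 with all) for SiO2 day 14, 15 to 16 (19 with all) for SiO2 day 63, 12 to 18 (20 with all) for BLM day 7, 18 to 20 (22 with all) for BLM day 14 and 4 to 11 (13 with all) for BLM day 63, each against untreated. For SiO2 against BLM it was 3 to 6 (6 with all) at day 7, 7 to 11 (12 with all) at day 14 and 3 to 6 (4 with all) at day 63. For day 63 against day 14 it was 1 to 4 (4 with all) in SiO2 and 9 to 14 (15 with all) in BLM, and for the interaction 5 to 9 (8 with all). With no filter the SiO2 count of day 63 against day 14 was 7. Fewer libraries leave fewer degrees of freedom, and no other cause was tested. No scaling moved the median of all genes by over 0.1 on the log2 scale. Upper quartile scaling turned the balance of all called genes against untreated to more lower than higher ones in all 6 treated groups, with 44.8% to 47.2% higher, in place of 52.3% to 56.4%. Same-numbered libraries did not deviate together: 0 of 63 pairs correlated above 0.1 (-0.12 to 0.06), and the numbers were not taken to pair the libraries. Members at a few counts per library are limited by depth.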
